A study of Canis lupus familiaris with 12 samples.

Results

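The B cell receptor complex and its proximal signalling were followed through 8 genes of a canine immuno-oncology panel, chosen by name: the signalling chains CD79A and CD79B, the surface receptors CR2, CD22 and MS4A1, the kinases BLK and BTK, and the adaptor BLNK. All 8 were among the 780 endogenous genes on the NanoString nCounter platform, where barcoded probes bound to transcripts are counted with no amplification step. The lymph nodes were those of 6 dogs treated for sinonasal cancer, and every dog received stereotactic body radiation therapy (SBRT) to the tumor, at 10 Gy in each of 3 fractions. In 3 dogs the submandibular and retropharyngeal nodes of both sides were irradiated too (elective nodal irradiation, ENI; irradiated nodes), while in the other 3 dogs radiation was kept to the tumor (non-irradiated nodes). Per the methods, mandibular nodes of the tumor side were removed 2 weeks after SBRT. The labels hold 6 samples per group, 2 from each dog, and do not say how the samples of a dog differ. The dogs were pet patients with different tumor types, aged 7 to 14 years with irradiated and 3 to 9 years with non-irradiated nodes, so age differed along with treatment, and these cannot be told apart in group values. The labels give lymph node as the tissue of every sample, whereas the extraction protocol speaks of frozen tumor.

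The B cell receptor is a surface immunoglobulin that binds antigen, coupled to CD79A and CD79B, which carry the signal into the cell. Bound antigen lets kinases of the SRC family phosphorylate these chains, SYK and BTK are then recruited, and the adaptor BLNK joins them to phospholipase C and the calcium and NF-kappaB pathways. Co-receptors that include CR2 lower the threshold for this signal and CD22 raises it. In a lymph node these genes mark the B cells of the follicles, and most of them are lost when B cells become plasma cells. These roles are known from human and mouse cells.

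For none of the 8 genes was the difference between irradiated and non-irradiated nodes large enough against the spread between samples to pass the test. The group values of 7 genes were higher in irradiated nodes, by up to 1.47-fold (MS4A1), and that of CD79A was 1.09-fold lower. Over the panel, 45.1% of genes were higher. By limma's moderated variances with Benjamini-Hochberg adjustment over the 780 genes, 0 of the 8 passed the threshold of 0.05 (adjusted p = 0.228 to 0.833), against 3.59% of all genes (28 genes, 13 higher and 15 lower). At an unadjusted p under 0.05 there were again 0 of the 8, against 21.9% of all genes, and 0 of the 8 passed with unmoderated or with unequal variances. The bands of the group value plus or minus its SD overlapped for all 8 genes, whereas they lay apart for 8.59% of genes. In bulk tissue, a different number of B cells and a different amount of RNA per B cell cannot be told apart.

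**Figure D1:**
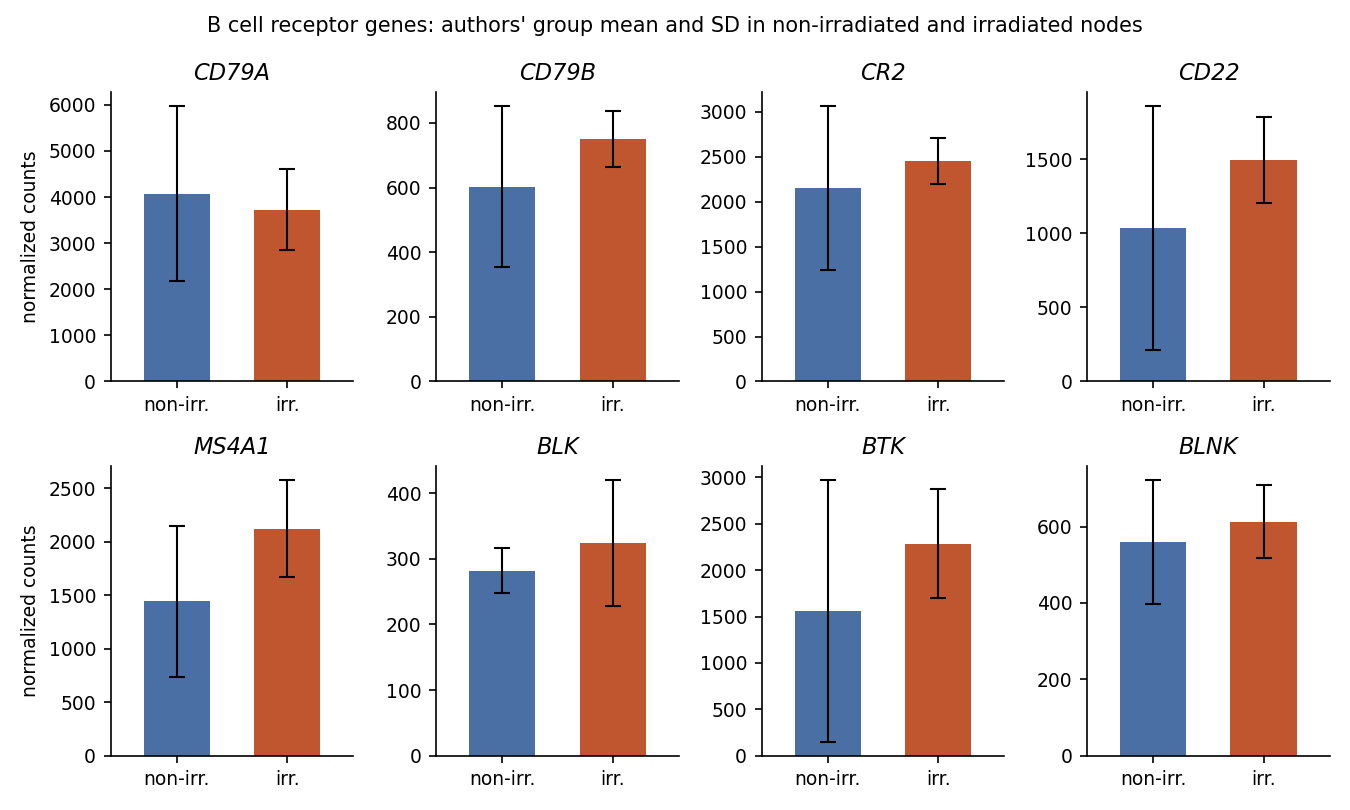
Authors' group mean of each gene in normalized counts (bars, linear axis from 0) with the authors' SD over the samples of a group (error bars), in non-irradiated (blue) and irradiated (orange) nodes, with 6 samples of 3 dogs per group by the labels. The error bars of both groups overlap for all 8 genes, and those of non-irradiated nodes are the longer ones for every gene but BLK.

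The values used are 1 group mean and 1 SD for each gene and group, as the authors deposited them in normalized counts, so the level in each sample cannot be shown. Every p-value over samples takes both samples of a dog as independent, and is too small to the extent that they are alike. The SDs were taken to run over the 6 labelled samples of a group, which the table does not state, and every SE, interval and p rests on this. The limits were also computed under an assumption of full dependence, as if both samples of each dog carried a single value. Variances were moderated across genes here too, which pulls large variances down. These limits are therefore not the widest possible, least of all for genes with a wide spread. No values of dogs entered this calculation, so it is not a test across dogs. Under it 0 of the 8 genes had an unadjusted p under 0.05, against 4.49% of all genes. Probes bind with different efficiency, so the levels of different genes were not ranked.

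The signalling chains of the receptor had opposite signs. CD79A (Ig-alpha; probe from base 620 of transcript NM_001313834.1) had an authors' mean of 3728 normalized counts (SD 877) in irradiated and 4075 (SD 1905) in non-irradiated nodes. The log2 ratio, here always irradiated over non-irradiated, was -0.13 ± 0.26 (SE, adjusted p = 0.833), and the 95% interval of the ratio ran from 0.623 to 1.34. CD79A was the single member with a lower value in irradiated nodes, by much less than either SD. CD79B (Ig-beta; base 194 of XM_005624254.3) had 751 normalized counts (SD 85.9) in irradiated and 603 (SD 250) in non-irradiated nodes. Its log2 ratio was 0.32 ± 0.22 (SE, adjusted p = 0.451), with an interval of the ratio from 0.893 to 1.74. The irradiated band for CD79B, 665 to 837, lay wholly inside the non-irradiated band of 353 to 853. The quotient of the CD79A over the CD79B value was 4.96 in irradiated and 6.76 in non-irradiated nodes, a 1.36-fold difference that could not be tested because the values of both genes in the same sample are needed.

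The immunoglobulin heavy chain of the receptor itself was looked at only after its values had been seen. IGHM, which encodes the chain of both membrane and secreted IgM, had 13779 normalized counts (SD 2355) in irradiated and 28054 (SD 18379) in non-irradiated nodes. This is a 2.04-fold lower value (log2 ratio -1.03 ± 0.30 SE) with an unadjusted p = 0.00393 and an adjusted p = 0.0622 by limma with variances pooled. Its SDs were far apart in the groups, and with unequal variances the unadjusted p was 0.0203 and the adjusted p 0.158, so IGHM did not pass by limma or by that test. IGHG, the heavy chain of the switched IgG class, had 37471 (SD 34046) against 25297 (SD 17697) normalized counts (0.57 ± 0.44 SE, adjusted p = 0.50). Whether IGHM differed from CD79A and CD79B in its ratio was not tested.

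The co-receptor genes CR2 and CD81 had values on opposite sides. CR2 (base 2435 of XM_005622319.1) encodes the receptor for complement C3 fragments on B cells and on follicular dendritic cells. It had 2455 normalized counts (SD 251) in irradiated and 2154 (SD 915) in non-irradiated nodes, a log2 ratio of 0.19 ± 0.23 (SE, adjusted p = 0.688; interval of the ratio 0.815 to 1.59). Its SD was 10.2% of the group value in irradiated nodes, the smallest relative spread among the 8 genes in that group. The tetraspanin CD81, which many other cell types carry as well, was 1.33-fold lower (-0.41 ± 0.17 SE, unadjusted p = 0.035, adjusted p = 0.19 by limma). Neither CR2 nor CD81 passed the threshold.

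The other surface receptors had larger differences with larger errors. MS4A1 (base 128 of NM_001048028.1) encodes CD20, carried by B cells before and after antigen contact but not by plasma cells. It had 2122 normalized counts (SD 456) in irradiated and 1443 (SD 703) in non-irradiated nodes. The log2 ratio of 0.56 ± 0.26 (SE) was the highest of the 8, with an unadjusted p = 0.0506 and an adjusted p = 0.228 by limma. The interval of the ratio, 0.999 to 2.17, just reached equality, and it widened to 0.807 to 2.68 under the assumption of full dependence. CD22 (base 1905 of XM_862798.3) is a lectin that recruits phosphatases to the receptor and dampens its signal. It had 1492 normalized counts (SD 291) in irradiated and 1037 (SD 823) in non-irradiated nodes, a 1.44-fold difference. Its log2 ratio was 0.53 ± 0.33 (SE, adjusted p = 0.393), and the interval of the ratio ran from 0.877 to 2.36. In non-irradiated nodes the SD of CD22 was 79.4% of the group value, against 19.5% in irradiated nodes.

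Among the intracellular members the ratio was highest for BTK and lowest for BLNK. BLK (base 1224 of XM_543206.4), a SRC family kinase found mainly in B cells, had 324 normalized counts (SD 95.7) in irradiated and 282 (SD 33.9) in non-irradiated nodes, with a log2 ratio of 0.20 ± 0.19 (SE, adjusted p = 0.572; interval of the ratio 0.87 to 1.52). BTK (base 368 of XM_005641566.2), the kinase that activates phospholipase C and is also made by myeloid cells, had 2284 (SD 588) against 1560 (SD 1412) normalized counts. The SD of BTK in non-irradiated nodes was thus nearly as large as its group value, at 90.6%, and its band ran from 147 to 2972. The log2 ratio of BTK was 0.55 ± 0.36 (SE, adjusted p = 0.426; interval of the ratio 0.852 to 2.52), close to that of MS4A1 but with the largest SE of the 8. BLNK (base 1103 of XM_005637573.3) had 613 (SD 96.1) in irradiated and 559 (SD 163) normalized counts in non-irradiated nodes. Its log2 ratio was 0.13 ± 0.19 (SE, adjusted p = 0.743; interval of the ratio 0.823 to 1.46). SYK and LYN, kinases that act on the chains of the receptor ahead of BTK, had log2 ratios of 0.02 ± 0.17 (SE) and -0.00 ± 0.16 (SE).

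**Figure D2:**
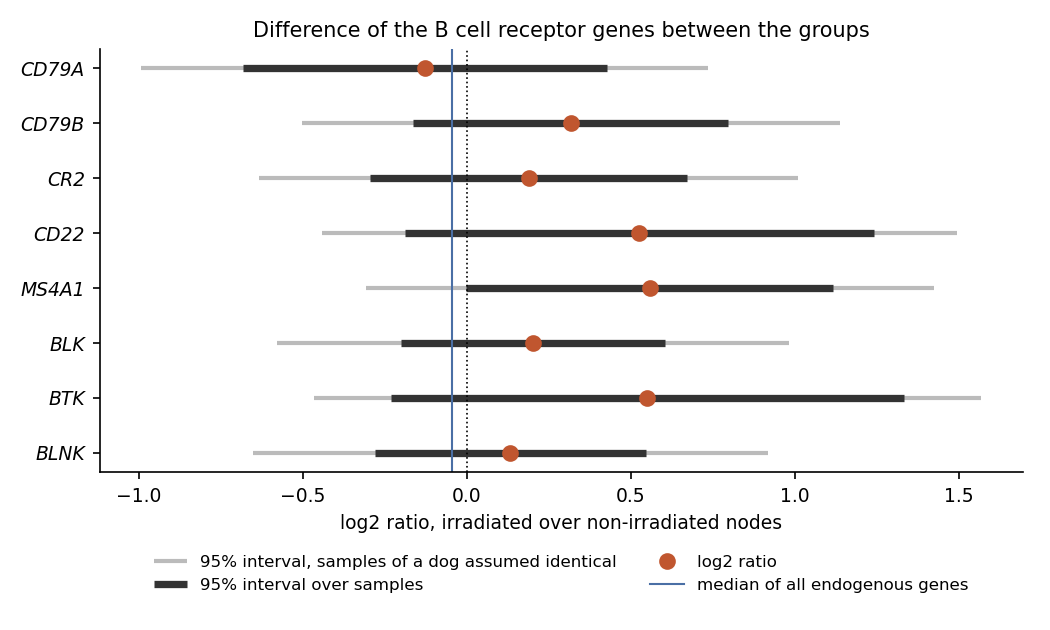
Log2 ratio, irradiated over non-irradiated, for the 8 genes (points), with the 95% interval over samples (dark lines) and the one under the assumption of full dependence between samples of a dog (grey lines); the blue line is the median of all endogenous genes. All 16 intervals include 0, that of MS4A1 over samples by the smallest margin, and the 8 intervals over samples all overlap each other.

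In order of the log2 ratio the genes ran from MS4A1, BTK and CD22 (0.53 to 0.56) through CD79B (0.32), BLK (0.20), CR2 (0.19) and BLNK (0.13) to CD79A (-0.13). From MS4A1 down to BLNK, neighbours in this order differed by less than the SE of either gene, and all 8 intervals overlapped each other. The median of the 8 was 0.26, beside -0.05 for all endogenous genes, and their mean was 0.29. The 95% intervals over samples left room for ratios as high as 2.52 (BTK) and as low as 0.623 (CD79A). Under full dependence, with variances moderated across genes, the intervals reached 2.96 (BTK) and 0.503 (CD79A).

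The spread between samples was wider without nodal irradiation for most of the 8 genes. Relative to the group value, the SD was larger in non-irradiated than in irradiated nodes for 7 of the 8 genes, as it was for 65.4% of all endogenous genes. The factor was 4.15 for CR2, 4.07 for CD22, 3.63 for CD79B, 3.52 for BTK, 2.27 for MS4A1, 1.99 for CD79A and 1.86 for BLNK. The median factor of the 8 was 2.89, against 1.30 over all endogenous genes. BLK went the other way, with an SD of 29.5% of its value in irradiated and 12.0% in non-irradiated nodes, a factor of 2.45. In irradiated nodes the relative SD of the members had a median of 20.5%, near the 22.9% of all genes, while in non-irradiated nodes it was 44.6% against 32.2%. The difference in spread was not tested, since members share the same few samples and the values of single dogs were not used here. A larger relative SD in non-irradiated nodes was also found for 12 of 14 other B cell genes, with a median factor of 3.13. Among them were PAX5 (17.8% of its value in irradiated, 92.8% in non-irradiated nodes) and TNFRSF13C (16.5% and 52.6%). It was not limited to B cell genes. The median factor was 2.42 for follicular dendritic cell genes (5 of 5 above 1) and 2.49 for plasma cell genes (3 of 4). The lists are not separate, since FCER2 of the follicular dendritic cell list was also counted among the B cell genes. CXCL13, whose own factor is that median of 2.42, was also counted among the germinal centre genes. Germinal centre genes had 1.53 (4 of 8) and stroma and vessel genes 1.35 (5 of 8). T cell genes had a median factor of 0.916 (7 of 15 above 1) and macrophage and monocyte genes 0.753 (2 of 9).

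**Figure D3:**
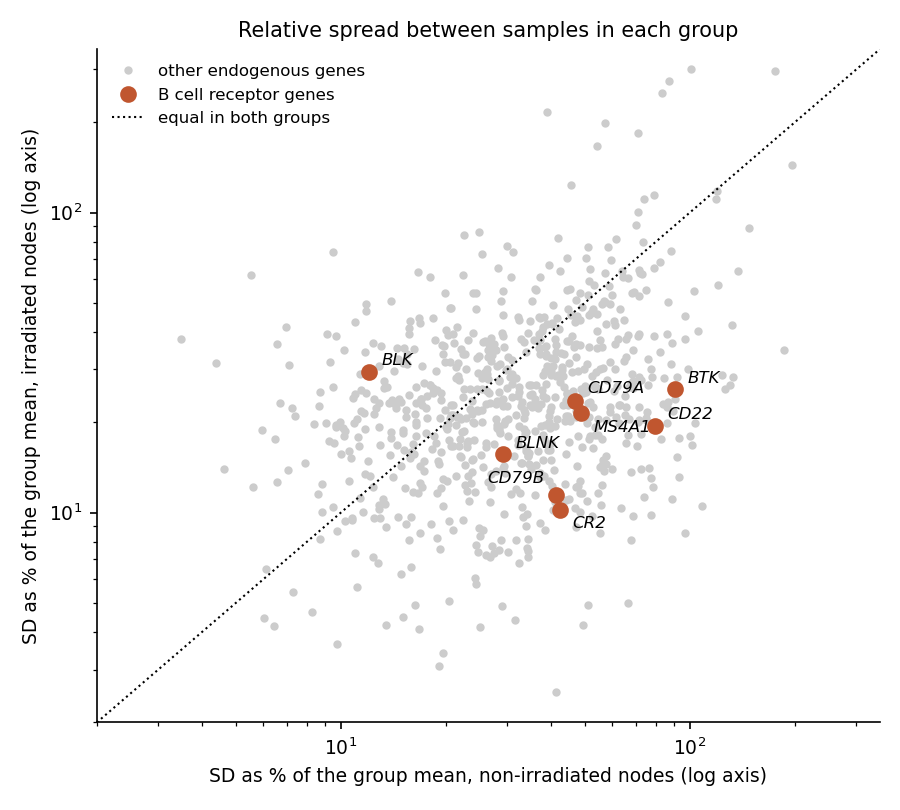
SD as a percent of the group mean in non-irradiated (horizontal) and irradiated (vertical) nodes, both on log axes, for each endogenous gene (grey) and the 8 B cell receptor genes (orange); the dotted line marks equal spread. The members other than BLK lie below the line, with CR2, CD22, CD79B and BTK at more than 3.5 times the relative SD in non-irradiated nodes.

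The wider pathway had more lower than higher values. Of 40 other genes of receptor signalling listed, 24 were matched by name, and 7 of these were higher and 17 lower in irradiated nodes, with a median log2 ratio of -0.17. By limma 0 passed the threshold, and with unequal variances 0 passed. At an unadjusted p under 0.05 by limma there were 1 higher and 4 lower of the 24 genes, beside 21.9% of all genes. The lower ones were CD81, the NF-kappaB subunits RELA (-0.46 ± 0.15 SE, adjusted p = 0.0825) and NFKB1 (-0.50 ± 0.23 SE, adjusted p = 0.22), and the calcium-regulated factor NFATC3 (-0.48 ± 0.22 SE, adjusted p = 0.222). BCL10, which links the receptor to NF-kappaB, followed with 0.29 ± 0.14 (SE, adjusted p = 0.261). CD38, an ectoenzyme also on plasma cells and activated T cells, had 0.38 ± 0.22 (SE). Most of the 24 genes, among them FYN (-0.35 ± 0.22 SE), PIK3CD (-0.39 ± 0.24 SE) and PTPRC (-0.09 ± 0.16 SE), are used by T cells as well.

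Markers of B cells outside the receptor had values on the same side as the members. Of 20 listed, 14 were matched, and 11 were higher and 3 lower, with a median log2 ratio of 0.49 and a summed level of 11527 against 8772 normalized counts (irradiated against non-irradiated). Among those with the smallest p by limma were TNFRSF13B, a receptor for BAFF and APRIL (0.57 ± 0.18 SE, adjusted p = 0.0793), the co-stimulatory receptor CD40 (0.64 ± 0.23 SE) and the MHC class II gene DLA-DOB (0.72 ± 0.29 SE). The authors counted CD40 and DLA-DOB among genes of antigen presentation. Of the list 0 passed the threshold by limma and 5 of the 14 had an unadjusted p under 0.05, beside 21.9% of all genes. The 3 lower ones were CD37 (-0.36 ± 0.21 SE), CXCR5 (-0.08 ± 0.28 SE) and CD27 (-0.58 ± 0.28 SE), which T cells share, and the groups had nearly equal values of FCER2 (0.00 ± 0.29 SE). The lineage factor PAX5 had 456 (SD 81.1) against 383 (SD 355) normalized counts, a log2 ratio of 0.25 ± 0.36 (SE).

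Genes of the stages after antigen contact mostly had higher values as well. All 4 matched plasma cell genes had higher values (median 0.64; summed level 2871 against 1639 normalized counts, or 1591 against 1175 without TNFRSF17), with TNFRSF17 at 1.46 ± 0.64 (SE), PRDM1 at 0.80 ± 0.30 (SE), IRF4 at 0.48 ± 0.32 (SE) and CD38 as above. Of 8 germinal centre genes 6 were higher, and the median of the list was 0.25. The summed level of the 8 was 21049 against 12746.5, most of it CXCL13, and 3502 against 3022 without that gene. The higher ones with the smallest p were PDCD1 (0.66 ± 0.24 SE) and the follicular chemokine CXCL13 (0.85 ± 0.38 SE), and ICOS had 0.26 ± 0.17 (SE). The 2 lower ones were BCL6 (-0.18 ± 0.15 SE) and CXCR5 (-0.08 ± 0.28 SE). Of the 5 matched genes of follicular dendritic cells, which also carry CR2, 3 were higher and 2 lower (median 0.00; 26123 against 19939, a direction that CXCL13 sets, since the other 4 genes sum to 8576 against 10215), namely CXCL13, VCAM1 (0.14 ± 0.13 SE) and FCER2 against CLU (-0.34 ± 0.29 SE) and LTBR (-0.22 ± 0.22 SE). In these 3 lists 0 genes passed the threshold by limma and 0 with unequal variances. By limma 2 of 4, 2 of 8 and 1 of 5 had an unadjusted p under 0.05, beside 21.9% of all genes.

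Among markers of other cells of the node, only stroma and vessel genes passed the test. Of 15 T cell genes 12 were lower (median -0.25, summed level 13633 against 17955 normalized counts, or 11005 against 13562 without CD3E). Those with the smallest p were CD8A at -1.41 ± 0.38 (SE, adjusted p = 0.0519), CD8B at -1.42 ± 0.44, CD3E at -0.74 ± 0.30 and LCK at -0.66 ± 0.28 (SE). The other CD3 chains had -0.25 ± 0.18 (CD3D) and -0.03 ± 0.27 (CD3G, SE). The higher ones were TRAT1 (0.33 ± 0.31 SE), CD4 (0.05 ± 0.17 SE) and CD28 (0.03 ± 0.22 SE). In this list 0 passed by limma and 4 had an unadjusted p under 0.05, a cut that 21.9% of all genes met. Of 9 macrophage and monocyte genes, cells that also make BTK and BLNK, 5 were lower (median -0.22; 3622 against 5630, or 2513 against 3358 without MARCO), close to the share of lower genes on the panel (428 of 780). The lower genes included CSF1R (-0.73 ± 0.30 SE), CD68 (-0.41 ± 0.20 SE), MARCO (-1.03 ± 0.55 SE) and CD14 (-0.33 ± 0.22 SE), the higher ones were FCGR1A (0.52 ± 0.41 SE), MRC1 (0.08 ± 0.35 SE), CD163 (0.07 ± 0.51 SE) and ITGAM (0.02 ± 0.19 SE), and 0 passed the threshold, with 1 at an unadjusted p under 0.05. Of 8 stroma and vessel genes 6 were lower (median -0.83, 5677 against 9365, or 3795 against 4598 without CXCL12). By limma PDGFRA (-1.67 ± 0.17 SE, adjusted p = 7.57e-05), CXCL12 (-1.34 ± 0.14 SE, adjusted p = 7.57e-05), CDH5 (-1.14 ± 0.18 SE, adjusted p = 0.00209) and PDGFRB (-0.92 ± 0.18 SE, adjusted p = 0.012) passed as lower. Under the assumption of full dependence 0 of them passed. The collagen genes COL1A1 (0.24 ± 0.33 SE) and COL3A1 (0.03 ± 0.27 SE) were the higher ones. No marker was at 0 in either group, but neither was any other probe (lowest group value 7.55). This does not show that a cell type was present. The part of these other cells in the values of the B cell receptor genes was not tested.

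**Figure D4:**
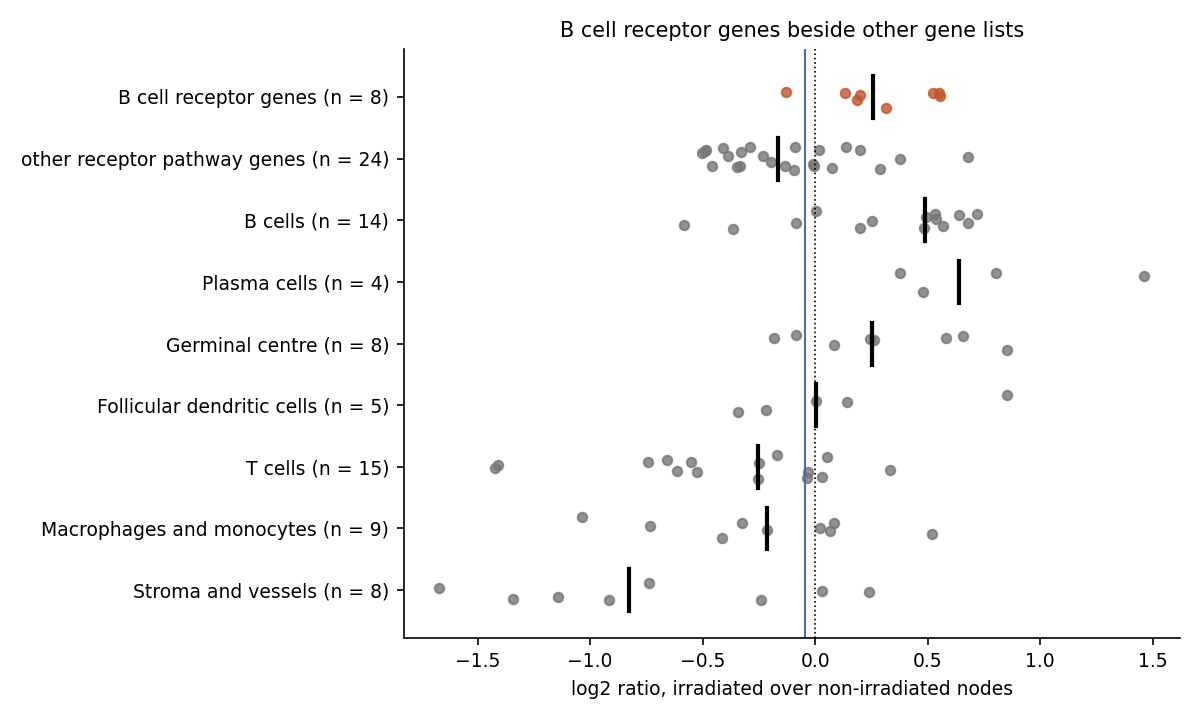
Log2 ratio, irradiated over non-irradiated (horizontal axis), of each gene (points, spread vertically for legibility) in the B cell receptor set (orange) and in 8 other lists (grey), with list medians (black bars) and the median of all endogenous genes (blue line). The medians of the B cell receptor genes (0.26), of other B cell genes (0.49) and of plasma cell genes (0.64) lie above 0, that of other receptor pathway genes (-0.17) below; lists share genes such as CD38, CXCL13 and CXCR5.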

How the data were processed

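Lymph node RNA of 12 samples was measured on the NanoString Canine IO 360 panel. The authors processed the counts with nSolver (version and background setting not given in the sources used here) and deposited 1 normalized signal per probe and group, with its SD over samples on the linear scale. The 20 housekeeping genes averaged a log2 ratio of -2.62e-05, so the group values were taken as geometric means scaled to these genes. The depth of each sample is unknown. The 6 columns of the authors' own comparison (fold, call, p-value, limits, adjusted p-value) were not used.

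The 8 genes, the gene lists and the tests were chosen with earlier results of these data known. Each group's log2 SD was derived from its value and SD by the log-normal relation for a geometric mean. Variances were pooled over the groups (6 against 6 samples, assumed from the labels), moderated across the 780 endogenous genes with limma (version 3.58.1, R 4.3.3; prior degrees of freedom 4.10), and two-sided p-values received the Benjamini-Hochberg adjustment (threshold 0.05). The test used group values only, so dogs could not be fitted. The assumption of full dependence between the samples of a dog uses no values of dogs. Before moderation it multiplies the variance of a difference by 2.5 and leaves 4 in place of 10 degrees of freedom. Moderation was then run anew and added prior degrees of freedom, so the p-values and intervals under this assumption do not rest on 4. The procedure was tested on simulated data. Named genes were all 8 members, the 6 pathway genes and the 4 genes of each marker list with the smallest p, and every listed gene past the threshold, except that some of these are not reported here by name; IGHM, IGHG, SYK, LYN and others named beyond these were chosen after their values were seen. Python 3.11.15, scipy 1.17.1 and statsmodels 0.14.6 were used.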

Additional observations from a re-analysis of the deposited data

How the results depend on the processing

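Under 12 other settings 0 of the 8 B cell receptor genes passed the threshold, and all 8 kept their direction under the 3 that can move a ratio (both centrings and the pseudocount) (adjusted p from 0.194 to 1 over genes and settings; unadjusted p of MS4A1 from 0.0361 to 0.19). Against 28 genes past the threshold over the panel, the plain delta method gave 16 and the log-normal relation for an arithmetic mean 17. By construction both turn the same group value and SD into a larger log2 SD. For MS4A1 the SE was 0.2952 and 0.2804, against 0.2605 in the main setting. Benjamini-Yekutieli and Bonferroni gave 7 each, being stricter. The assumption of full dependence gave 0 (35 genes at an unadjusted p under 0.05), as it widens errors by construction. The other settings gave 25 to 38, with unmoderated variances (35) and unequal variances (29) sharing only 20 and 17 of the 28. Centring on the median of all endogenous genes, which shifts every log2 ratio up by 0.05, turns the sign of LYN, CD180, ZAP70 and CD3G, all next to 0, and of no other listed gene. No dog or sample could be left out, since only group values were used. No paired analysis was possible because no dog is in both groups.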
